A study of Rattus norvegicus with 6 samples.

Results

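Carboxylesterases are serine hydrolases that split esters, amides and thioesters, and the liver is their main site in rodents. The genes described here are 7 rat carboxylesterases, Ces1c, Ces1d, Ces1e, Ces1f, Ces2a, Ces2c and Ces2e, taken as a family because the Ces2e probe had been seen to differ strongly between the animals. Every probe whose RefSeq accession on the array belongs to one of these genes was taken. That gave 12 probes of 6 genes, out of 61657 probes and 15284 named genes, and no probe matched Ces2a, which RefSeq lists as a transcribed pseudogene. Liver RNA came from male rats of the outbred Sprague-Dawley stock, 9 weeks old, killed under isoflurane, an inhaled anaesthetic (n = 3), or under CO2/O2, a gas mixture (n = 3). Rats of both groups had been given corn oil at 5 mL/kg/day, over 3 days by one label and 9 weeks by another, and no unanaesthetised rat was measured. Each rat had 1 array, so p-values and intervals cover the spread between these rats only.

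The family works in the lumen of the endoplasmic reticulum or, for some members, after secretion into blood. Enzymes of the Ces1 class prefer esters with a bulky acyl group and a small alcohol, and act on drugs as well as on stored lipid. Enzymes of the Ces2 class prefer the opposite arrangement, a small acyl group and a bulky alcohol. Several genes of both classes lie side by side on chromosome 19: Ces1f, Ces1e, Ces1d, Ces1c and Ces1a are neighbours in that order in the RefSeq annotation of GRCr8. Ces2f, Ces2el1, Ces2, Ces2b, the pseudogene Ces2c-ps2, Ces2a and Ces2e form another run, while Ces2c lies on chromosome 1. No probe matched Ces2f, Ces2el1 or Ces2, so these neighbours of Ces2e were not measured.

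All 6 arrays were on 1 slide with 1 scan time, and no spot was saturated. The share of probes well above background was 53.4% to 60.6% in isoflurane rats and 56.9% to 62.3% in CO2/O2 rats. The 4 arrays of isoflurane replicate 1 and CO2/O2 replicates 1 to 3 filled the first row of the slide, and isoflurane replicates 2 and 3 filled the next, so place on the slide and group ran together. Hepatocyte markers showed liver: albumin, transthyretin and the other 6 tested markers had a median difference of -0.03 (log2). Their summed signal was 2274 to 2453 times the array's 75th percentile in isoflurane rats and 2329 to 2497 times it in CO2/O2 rats.

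Ces2e, a Ces2-class enzyme, was dim after isoflurane and far brighter after CO2/O2. Its 1 probe, A_44_P142111, had processed signals of 129.8, 56.4 and 81.7 in isoflurane rats 1 to 3, against 4749, 2346 and 1592 in CO2/O2 rats 1 to 3. The groups were far apart: the dimmest CO2/O2 rat lay well above the brightest isoflurane rat. The probe was well above background on 2 of 3 isoflurane arrays, all but that of isoflurane replicate 2, and on 3 of 3 CO2/O2 arrays. Before any correction the median brightness of the spot was 175.5, 106 and 137.5 in isoflurane rats over a local background of 34, 43 and 37, against 4244, 2261.5 and 1593 in CO2/O2 rats over a local background of 42, 42 and 41. The contrast was therefore present in the unprocessed spots, with an even local background.

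On the log2 scale relative to each array's 75th percentile, Ces2e averaged -3.46 ± 0.60 in isoflurane rats and 1.41 ± 0.79 in CO2/O2 rats (SD, n = 3 each). The difference, isoflurane minus CO2/O2, was -4.88 ± 0.46 (SE), with a 95% interval of -6.00 to -3.75, or 29.4-fold lower in isoflurane rats. Because this contrast was the reason for choosing Ces2e, these values are a description and carry no test. Among CO2/O2 rats the highest and lowest signals were 2.99-fold apart. The size of the difference depended on how dim signals and slide place were treated. Normexp background correction gave 15.4-fold, blocking on slide row 18.9-fold, and a slope over place along the slide 8.91-fold. The part of slide place in the difference was not tested further.

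The bases around the Ces2e start are shown because this gene carries the contrast. The stretch is chr19:163649-163948 on the plus strand of GRCr8, from RefSeq, running from 250 bases before the start to 50 after it. Capitals mark GTAAAC on either strand, the core bound by forkhead factors, a family of liver regulators; in Ces2e it reads on the minus strand, 61 bases before the start.
Ces2e: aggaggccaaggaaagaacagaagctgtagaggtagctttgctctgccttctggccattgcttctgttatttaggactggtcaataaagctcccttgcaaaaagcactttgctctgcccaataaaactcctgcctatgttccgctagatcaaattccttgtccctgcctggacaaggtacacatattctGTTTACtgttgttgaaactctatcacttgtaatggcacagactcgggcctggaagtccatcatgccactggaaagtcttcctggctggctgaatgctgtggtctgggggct

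**Figure D1:**
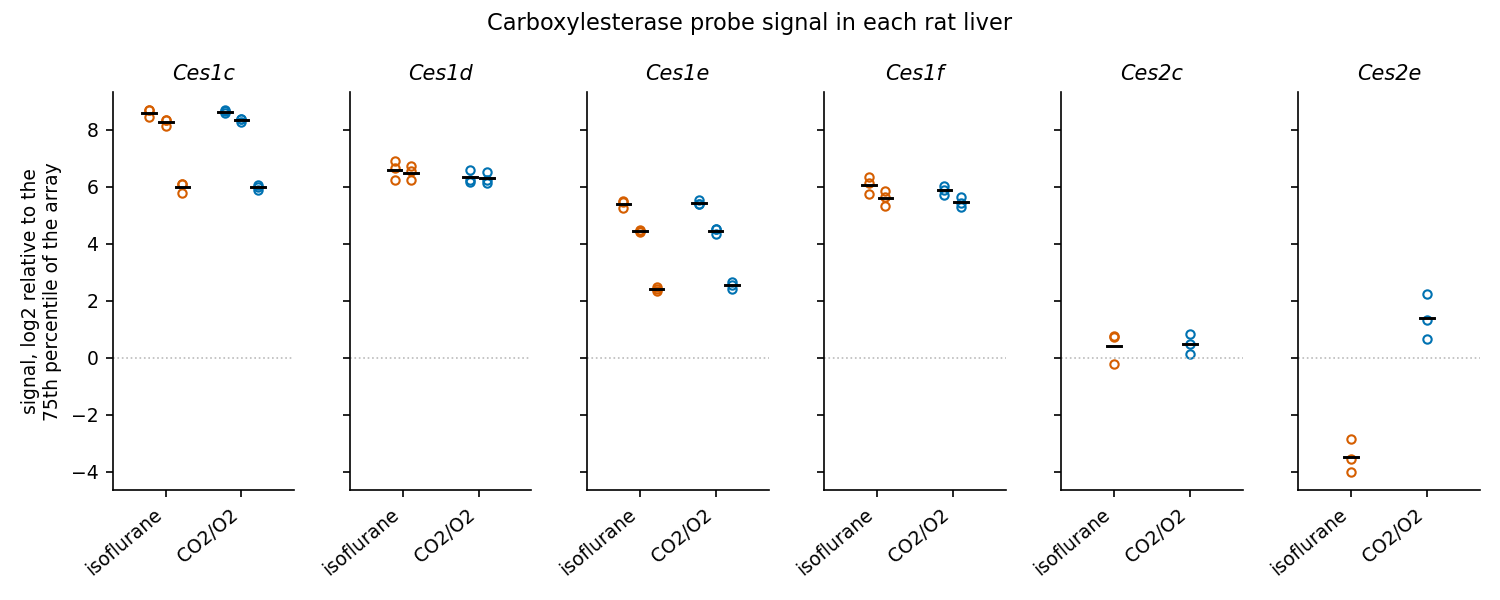
Signal of every member probe in every rat, as log2 relative to the 75th percentile of the array (dotted line at 0), with isoflurane rats left and CO2/O2 rats right; open circles are rats, bars are group means of 3 rats, and probes of one gene stand side by side. Ces2e is the member whose groups are apart, at -4.01 to -2.83 in isoflurane rats and 0.67 to 2.25 in CO2/O2 rats.

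Some markers of other cells moved with the groups. Of the Kupffer cell markers, 10 of 10 tested were lower in isoflurane rats by the brightest tested probe of each, at a median of -0.35 (log2). A second probe of Csf1r, a marker on this list, was at 0.03, while further probes of the other Kupffer markers were all lower. The summed signal of the Kupffer markers was 160 to 189 times the 75th percentile in isoflurane rats against 199 to 245 times it in CO2/O2 rats. Erythroid markers were lower for 4 of 4 (median -0.41), with sums of 323 to 429 in isoflurane rats and 394 to 561 in CO2/O2 rats. Lymphocyte markers were lower for 4 of 4 (median -0.45; sums 2.04 to 2.14 in isoflurane rats, 2.05 to 2.57 in CO2/O2 rats), and cholangiocyte markers for 4 of 5 (median -0.33; sums 2.07 to 2.16 in isoflurane rats, 2.00 to 2.48 in CO2/O2 rats). None of these passed limma's test at an adjusted p of 0.05; at an unadjusted p under 0.05 there were 6 Kupffer, 2 erythroid, 2 lymphocyte and 1 cholangiocyte markers, beside 7.55% of all probes tested. With a slope over slide place the medians were 0.00 for Kupffer, 0.20 for erythroid, -0.05 for lymphocyte and 0.10 for cholangiocyte markers, and normexp put the last at -0.01. In bulk tissue, fewer cells of a type and less RNA per cell cannot be told apart, and the part of these cells in the Ces2e result was not tested.

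The intestine is another major site of Ces2-class enzymes. Of its 6 markers with a probe, Vil1 and Cdx2 were not above background on any array, and Fabp2, Cdh17, Lct and Lgr5 were tested. Of those 4, 2 were higher and 2 lower, with a summed signal of 2.97 to 16.4 in isoflurane rats and 2.68 to 5.07 in CO2/O2 rats. None passed, and 1 had an unadjusted p under 0.05, beside 7.55% of all probes. Cdh17, a cadherin, was at 2.65 ± 1.49 (SE, log2 difference) and Fabp2, the intestinal fatty acid binding protein, at -0.53 ± 0.21. Cdh17 was well above background on all 6 arrays, and which cells gave its signal was not tested. It ran from -3.42 to 3.87 (log2) over the rats, with overlapping groups. Its 3.87 in isoflurane replicate 2 made up most of the summed signal of 16.4. The pancreatic markers Cela1 and Pnlip and the kidney marker Slc34a1 were likewise above background on no array. The 4 tested pancreatic markers had a median of -0.28, which turned to 0.34 with slide row blocked, 0.59 with a slope over place and 0.12 without isoflurane replicate 2, with sums of 0.584 to 1.24 in isoflurane rats and 0.630 to 1.49 in CO2/O2 rats, and the 1 tested kidney marker was at 0.19, with sums of 6.43 to 7.55 in isoflurane rats and 5.49 to 6.91 in CO2/O2 rats.

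The other 5 measured members, with 11 probes, did not show the Ces2e contrast. All 11 were well above background on all 6 arrays, with differences from -0.13 to 0.26 on the log2 scale. Every one of the 11 intervals (95%) covered 0, and every one lay within a 2-fold change in either direction, the widest limits being -0.81 and 0.74. The median half-width of the intervals was 0.29, close to the 0.30 of all probes tested.

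Over all 12 member probes, 0 passed limma's test (Benjamini-Hochberg adjusted p under 0.05), beside 0.00866% of the 34637 probes tested on the arrays. At an unadjusted p under 0.05 there was 1, that of Ces2e, beside 7.55% of probes. The groups did not overlap for 1 of 12, again Ces2e, beside 13.6% of probes, and 1 of 12 differed by at least 2-fold, beside 1.5%. As Ces2e was chosen on this contrast, nothing is read from its place in these counts. By sign, 4 member probes were higher and 8 lower in isoflurane rats, with a median of -0.03 beside -0.0017 for all probes.

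**Figure D2:**
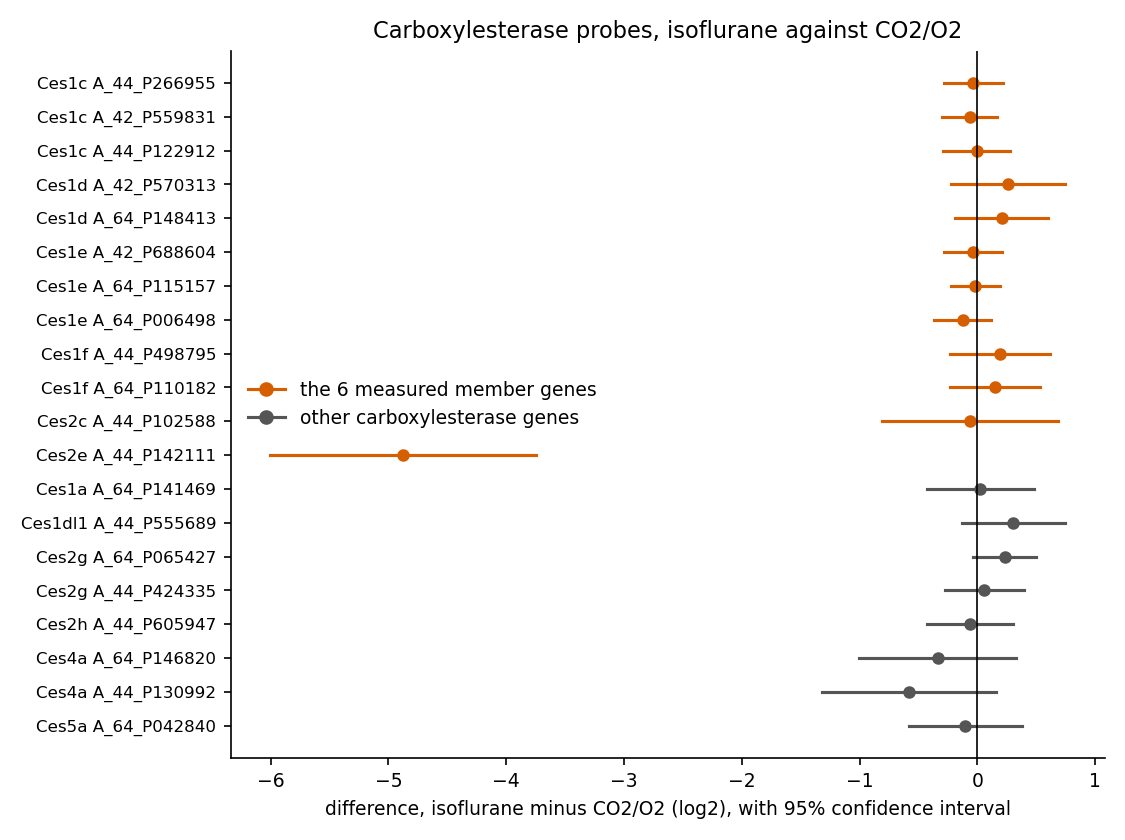
Difference, isoflurane minus CO2/O2 (log2), for each tested carboxylesterase probe, with its 95% confidence interval; members are orange and other carboxylesterases grey. All intervals except that of Ces2e, at -6.00 to -3.75, cover 0.

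Ces1d encodes a liver triacylglycerol hydrolase that takes part in mobilising stored fat for lipoprotein assembly. Its brighter probe, A_42_P570313, had processed signals of 69929, 109828 and 95656 in isoflurane rats 1 to 3, against 72590, 71327 and 97085 in CO2/O2 rats 1 to 3. The groups overlapped, and isoflurane replicate 2 was the highest rat. The log2 difference was 0.26 ± 0.20 (SE; 95% interval -0.23 to 0.74). The second probe, A_64_P148413, gave 0.21 ± 0.16.

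Ces1f is another liver Ces1 enzyme. Its probe A_44_P498795 read 49294, 73758 and 67481 in isoflurane rats and 59049, 49410 and 65831 in CO2/O2 rats. The groups overlapped here too, with isoflurane replicates 2 and 3 the highest rats. Its log2 difference was 0.19 ± 0.18 (SE), and that of the second probe, A_64_P110182, was 0.14 ± 0.16. When slide row was blocked or a slope over slide place fitted, both probes of Ces1d and both of Ces1f changed sign, the lowest value being -0.36.

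Ces1c, whose mouse counterpart is the esterase secreted into plasma, differed little between rats. Probe A_44_P266955 read 381934, 317044 and 394147 in isoflurane rats and 410218, 359689 and 407020 in CO2/O2 rats. Isoflurane replicate 2 was the lowest rat, and the other rats of both groups overlapped. The 3 probes of the gene gave log2 differences of -0.03 ± 0.10, -0.07 ± 0.10 and -0.01 ± 0.12 (SE). All 3 had the same lowest rat; the brightness of different probes is not compared.

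Ces1e, known as egasyn, holds beta-glucuronidase in the endoplasmic reticulum. Probe A_42_P688604 read 41240, 34820 and 42960 in isoflurane rats and 46302, 39783 and 42219 in CO2/O2 rats. The groups overlapped, with isoflurane replicate 2 lowest and CO2/O2 replicate 1 highest. The 3 probes gave log2 differences of -0.04 ± 0.10, -0.02 ± 0.08 and -0.13 ± 0.10 (SE), all lower but none beyond the spread between rats. Gusb, which encodes beta-glucuronidase, was at -0.15 ± 0.09 (SE; limma adjusted p = 0.732). Its isoflurane rats, at 2.07, 2.17 and 2.14, all lay below its CO2/O2 rats, at 2.39, 2.22 and 2.22 (log2), and 14.2% of all genes tested had groups that did not overlap.

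Ces2c, a Ces2-class enzyme encoded on chromosome 1, was the member that varied most from rat to rat apart from Ces2e. Probe A_44_P102588 read 1553, 782.7 and 1573 in isoflurane rats and 1772, 1310 and 1100 in CO2/O2 rats. The groups overlapped, and isoflurane replicate 2 stood below every other rat. Its log2 difference was -0.06 ± 0.31 (SE; 95% interval -0.81 to 0.69), the widest interval among the members other than Ces2e. Its within-group SD was 0.46, at the 92.1 percentile of all tested probes, whose median was 0.16.

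The starts of the Ces1 members are shown to set beside that of Ces2e, and that of Ces1dl1, a Ces1d-like gene elsewhere on chromosome 19, because its rat-to-rat pattern followed Ces1d. Coordinates are of GRCr8, all on the plus strand, from RefSeq: Ces1f at chr19:29969383-29969682, Ces1e at chr19:30005923-30006222, Ces1d at chr19:30046244-30046543, Ces1c at chr19:30099197-30099496 and Ces1dl1 at chr19:38444174-38444473. Capitals again mark GTAAAC.
Ces1f: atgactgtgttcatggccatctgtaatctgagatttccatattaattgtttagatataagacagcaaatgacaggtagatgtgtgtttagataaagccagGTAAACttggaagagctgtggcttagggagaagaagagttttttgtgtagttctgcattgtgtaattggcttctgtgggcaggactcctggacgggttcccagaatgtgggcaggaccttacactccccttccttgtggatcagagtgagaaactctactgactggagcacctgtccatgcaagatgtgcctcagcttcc
Ces1e: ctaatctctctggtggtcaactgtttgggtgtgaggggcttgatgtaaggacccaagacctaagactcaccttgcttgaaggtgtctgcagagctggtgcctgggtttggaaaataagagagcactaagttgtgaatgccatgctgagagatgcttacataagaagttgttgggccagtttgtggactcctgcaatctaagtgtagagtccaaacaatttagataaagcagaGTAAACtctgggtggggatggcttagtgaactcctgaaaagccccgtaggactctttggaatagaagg
Ces1d: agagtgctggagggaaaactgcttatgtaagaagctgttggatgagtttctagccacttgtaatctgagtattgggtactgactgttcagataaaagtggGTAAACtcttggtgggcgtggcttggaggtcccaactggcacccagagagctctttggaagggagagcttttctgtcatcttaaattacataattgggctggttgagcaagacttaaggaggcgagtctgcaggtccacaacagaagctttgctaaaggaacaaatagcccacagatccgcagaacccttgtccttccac
Ces1c: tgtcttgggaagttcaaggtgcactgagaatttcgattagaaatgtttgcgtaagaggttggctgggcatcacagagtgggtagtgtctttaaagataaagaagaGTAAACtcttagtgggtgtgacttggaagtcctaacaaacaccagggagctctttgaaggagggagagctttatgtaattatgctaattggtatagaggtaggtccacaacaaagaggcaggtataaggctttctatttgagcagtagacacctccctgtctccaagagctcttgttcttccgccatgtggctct
Ces1dl1: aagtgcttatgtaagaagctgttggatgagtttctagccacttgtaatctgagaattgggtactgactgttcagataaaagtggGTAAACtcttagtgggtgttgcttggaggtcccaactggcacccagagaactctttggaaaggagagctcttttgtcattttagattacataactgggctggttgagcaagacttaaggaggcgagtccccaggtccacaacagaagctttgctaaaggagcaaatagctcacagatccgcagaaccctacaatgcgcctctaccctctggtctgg

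GTAAAC, searched on both strands after the sequences had been read, lay in 5 of the 6 member promoters that RefSeq gave. It was 145 bases before the start in Ces1c, 150 in Ces1d, 150 in Ces1f and 18 in Ces1e, all on the plus strand, and was not in the Ces2c window. Among other carboxylesterase windows, that of Ces1dl1 held GTAAAC, and those of Ces1a, the neighbour of Ces1c, and Ces2b did not. Of 33469 promoter windows of the same length, 8.11% held GTAAAC. The Ces1 genes are neighbouring copies, so their matches are not independent. CCAAT, the box bound by NF-Y, was in 5 of 6 windows beside 37.5% of all, and overlapped none of the GTAAAC matches. AGGTCA, bound by many nuclear receptors, the TATA box TATAAA and GTTAAT, bound by HNF1, were in 0 of 6, beside 16.2%, 14.2% and 7.45% of all windows. A match describes the letters and is not evidence of binding. The windows of Ces1d and Ces1dl1 were 93.0% identical over 284 aligned bases and those of Ces2c and Ces2b 80.6% over 288, while the other 34 pairs among 9 carboxylesterases were 55.8% to 72.4% identical.

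Rat by rat, the members other than Ces2e fell into one set with isoflurane replicate 2 highest and another with that rat lowest. The array of that rat had the lowest share of probes well above background, 53.4%, and the most outlier-marked spots, 60, followed by CO2/O2 replicate 1 with 49; their part in the split was not tested. Both Ces1d probes, both Ces1f probes and Ces1dl1 were highest in isoflurane replicate 2. All 3 Ces1c probes, 2 of 3 Ces1e probes and Ces2c were lowest in that rat, as was Ces2e. Ces1d and Ces1dl1 were lowest in CO2/O2 replicate 1, where Ces2c, Ces2e and 2 of 3 Ces1e probes were highest. For Ces1d the log2 range was 0.67 among isoflurane rats and 0.42 among CO2/O2 rats, beside a group difference of 0.26.

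**Figure D3:**
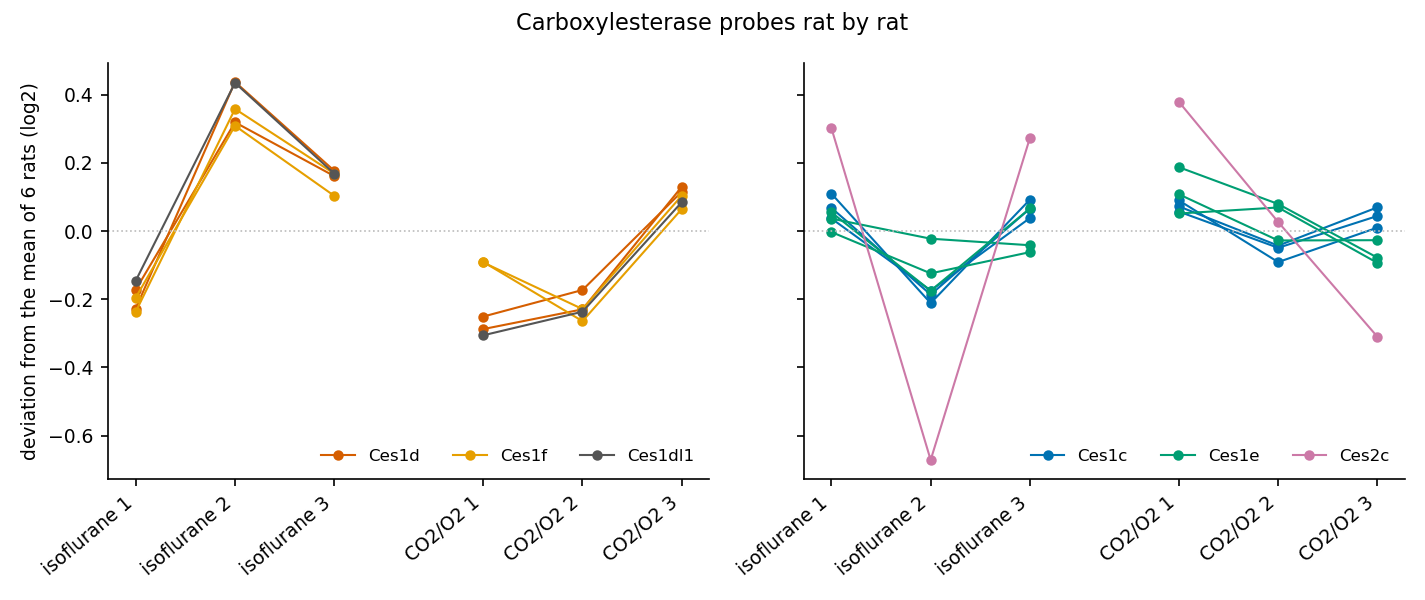
Deviation of each probe from its mean over the 6 rats (log2), for Ces1d, Ces1f and Ces1dl1 (left) and Ces1c, Ces1e and Ces2c (right), with isoflurane rats left of CO2/O2 rats; each line is 1 probe, joined within a group only to guide the eye. Isoflurane replicate 2 is the highest rat in the left panel, and in the right panel it is lowest for Ces2c, at -0.67.

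Correlations of the log2 signal over the 6 rats were computed for 15 pairs of Ces1c, Ces1d, Ces1e, Ces1f, Ces2c and Ces1dl1, with two-sided exact permutation p-values adjusted over the pairs. Ces1dl1 was the only gene entered from outside the members. The adjustment covers neither that choice nor the carboxylesterases left out, so p-values of Ces1dl1 pairs are a description only. Ces1d and Ces1dl1 gave r = 0.990 (exact p = 0.00278, the smallest the design allows; adjusted p = 0.0417) and rho = 1 (exact p = 0.00278, adjusted p = 0.0417). Without the 2 rats farthest from the Ces1d median, r was 0.977. Whether a carboxylesterase probe also binds transcripts of close paralogs was not tested, as probe sequences were not used here. The other 14 pairs did not pass.

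Among those, Ces1d and Ces1f gave r = 0.946 (exact p = 0.025, adjusted p = 0.0833) and rho = 0.829 (exact p = 0.0583, adjusted p = 0.219), with r = 0.993 without 2 rats. Ces1e and Ces2c gave r = 0.958 (exact p = 0.0111, adjusted p = 0.0833) and rho = 0.886 (exact p = 0.0333, adjusted p = 0.219), with r = 0.863 without 2 rats. Ces1d and Ces2c ran opposite ways, at r = -0.776 (exact p = 0.0833, adjusted p = 0.179) and rho = -0.714 (exact p = 0.136, adjusted p = 0.255). Without isoflurane replicate 2 and CO2/O2 replicate 1 that r was -0.296. With each group centred on its own mean, r was 0.997 for Ces1d and Ces1dl1, 0.933 for Ces1d and Ces1f, 0.964 for Ces1e and Ces2c and -0.843 for Ces1d and Ces2c. Over the 4 arrays of the first slide row, r was 0.960, 0.783, 0.874 and -0.911 for these pairs, in the same order; the other row held 2 arrays.

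Beyond the members, the array held 11 probes of 7 other carboxylesterase genes, of which 8 probes of 6 genes were tested. By limma 0 of 8 passed, 0 had an unadjusted p under 0.05, 4 were higher and 4 lower in isoflurane rats, and the median difference was -0.02. Ces1dl1 was at 0.31 ± 0.18 (SE, log2), and Ces1a, the neighbour of Ces1c, at 0.03 ± 0.19, its second probe being above background on no array. Ces2g was at 0.23 ± 0.11 and 0.06 ± 0.14 by its 2 probes, and Ces2h at -0.06 ± 0.15. Ces4a was at -0.34 ± 0.27 and -0.58 ± 0.31, with CO2/O2 replicate 1 highest by both probes. Ces5a, the esterase known as cauxin from cat urine, was at -0.10 ± 0.20 by a probe above background on 1 of 3 isoflurane and 3 of 3 CO2/O2 arrays, and its second probe was above background on none.

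Ces2b, in the same run of genes as Ces2e, was on in a single rat. Its probe read 6.28, 11.6 and 9.65 in isoflurane rats, against 160.4, 6.07 and 11.5 in CO2/O2 rats. Only CO2/O2 replicate 1 was above background, the rat that was also highest for Ces2e, so the probe was not tested. The pattern differed from that of Ces2e, which was well above background in all CO2/O2 rats and in isoflurane replicates 1 and 3.

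Other enzymes that split esters or related bonds in liver showed no common direction. Of 24 such genes 22 were tested: 10 were higher, 12 lower and 0 passed limma's test, 0 had an unadjusted p under 0.05, and the median was -0.05. Lipa, the lysosomal acid lipase, was at -0.29 ± 0.12 (SE; limma adjusted p = 0.661), and Afmid, the kynurenine formamidase, at 0.31 ± 0.16 (limma adjusted p = 0.708). For both genes the groups overlapped.

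Of 10 regulators of xenobiotic and lipid genes, 4 were higher, 6 lower and 0 passed limma's test, with 1 at an unadjusted p under 0.05, beside 7.55% of all probes, and a median of -0.06. Ppara, the fatty acid receptor, read 1.75, 1.80 and 1.97 in isoflurane rats and 0.85, 1.18 and 1.60 in CO2/O2 rats (log2). Its groups did not overlap, as for 14.2% of all genes tested, and its difference was 0.63 ± 0.20 (SE; limma adjusted p = 0.597), with 0.66 from a second probe. Nr3c1, the glucocorticoid receptor, was at -0.25 ± 0.11 (limma adjusted p = 0.672), with -0.20 and -0.10 from its other probes. The Nr3c1 groups did not overlap either.

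Of 11 drug metabolism genes induced through the nuclear receptors CAR or PXR, 7 were higher, 4 lower and 0 passed limma's test, with 2 at an unadjusted p under 0.05, beside 7.55% of all probes, and a median of 0.08. Cyp3a18, a cytochrome P450, read 7.03, 6.81 and 7.18 in isoflurane rats and 5.71, 6.21 and 6.81 in CO2/O2 rats (log2), so the closest rats nearly met. Its difference was 0.76 ± 0.28 (SE; limma adjusted p = 0.634). Cyp2b2, a classic CAR target, was at 0.50 ± 0.16 (limma adjusted p = 0.614), and its 4 other probes were all higher, at 0.19 to 0.63.

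**Figure D4:**
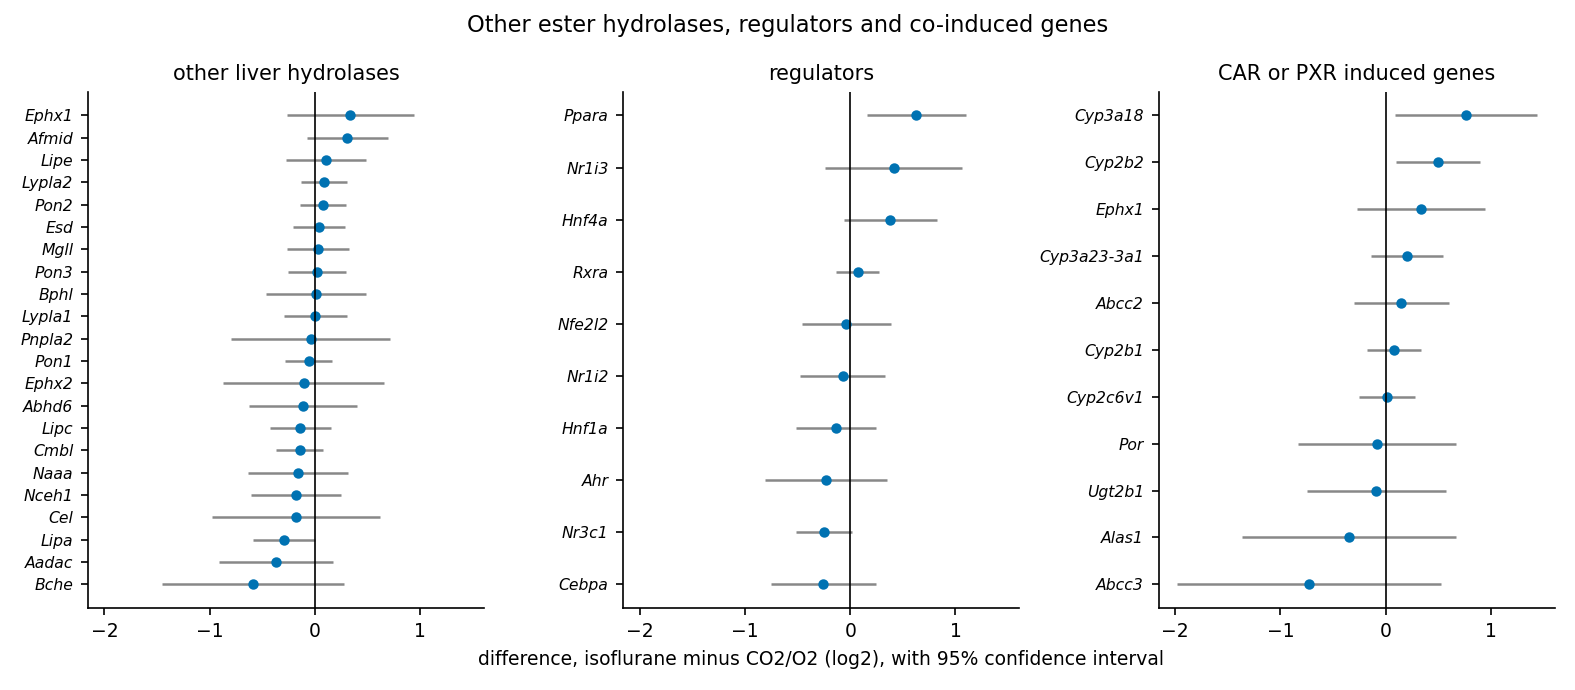
Difference, isoflurane minus CO2/O2 (log2), with its 95% confidence interval for the tested genes of 3 lists: other liver hydrolases, regulators, and genes induced through CAR or PXR. Most intervals cover 0, and those of Ppara, Cyp3a18 and Cyp2b2 do not before adjustment.

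Among 1273 named genes whose signal spanned at least 1 log2 unit over the rats, the 5 most like Ces2e by Pearson r over 6 arrays were Tob2 (0.979), Insig1 (0.973), Frzb (0.966), Hpgd (0.965) and Slc27a5 (0.963). Each was lower in isoflurane rats, as a pattern like that of Ces2e entails, by far smaller amounts. Insig1, which restrains sterol synthesis, was at -1.09 ± 0.13 (SE, log2), and Slc27a5, a bile acid coenzyme A ligase, at -0.87 ± 0.11. Tob2, Frzb and Hpgd were at -0.80 ± 0.13, -0.67 ± 0.15 and -0.67 ± 0.15. As the Ces2e groups lie apart, r mostly follows the group difference, and no test is given.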

How the data were processed

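Liver RNA of 6 rats was hybridised to 1-colour arrays. Images were read with Agilent Feature Extraction 10.7, per the submitters' processing notes. The deposited spot values are intensity values, corrected for background within each array per the file headers and not scaled between arrays. The deposited value table holds a ratio, each array's processed intensity divided by 1 number close to its 75th percentile, found by setting it against the scanner values; column medians were 0.0917, 0.0901 and 0.0905 for isoflurane and 0.0864, 0.0882 and 0.0868 for CO2/O2 replicates 1 to 3, with no centring of probes, and the reason for each divisor is not stated there.

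From the deposited intensity, log2 values minus each array's 75th percentile over 61657 non-control probes were computed. The 177 spots marked as outliers, none on a member probe, were left out. A probe entered the test where at least 1 group had it well above background in all 3 rats (34637 probes), with limma 3.58.1 in R 4.3.3 (lmFit, eBayes, Benjamini-Hochberg over all tested probes). Probes were named by accession through RefSeq genes of GRCr8: 27460 matched 1 gene and 34197 none. The files' headers name another build, so array coordinates are not used. A gene with several probes is represented by its brightest tested probe. RefSeq promoter windows run from 250 bases before to 50 after a start. Python 3.11.15, scipy 1.17.1 and Biopython 1.88 served for exact permutation tests and sequence alignment.

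The members and lists were chosen with earlier results of these data known. The rule named all members, every other carboxylesterase on the array, the 2 genes of each list with the largest moderated t, any past the threshold, and the 5 genes most like Ces2e; marker genes named beyond it were chosen after their values were seen. On simulated data for isoflurane against CO2/O2 (10 sets, each of 34637 probes), the test recovered 54.9% of 2-fold and 84.8% of 4-fold changes, with 6.38% false among calls. These sets shuffled the spread over probes, held no slide effect and changed only probes above the median signal. The rates need not hold for dim or widely varying probes. Alternatives covered background correction, scaling, the filter, outlier spots, the variance model, the replicate and slide row blocks, slide place and each array left out. All arrays shared 1 slide and scan time, so neither was used as a block.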

Additional observations from a re-analysis of the deposited data

How the results depend on the processing

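No alternative put a member probe past the threshold: the count was 0 of 12 in every fit in which all were tested and 0 of 11 where signal on all 6 arrays was asked for, which left Ces2e out, and 0 at an adjusted p of 0.10. Ces2e was lower in isoflurane rats in each of the 16 settings that tested it, between -5.25 and -3.16 on the log2 scale, and between -5.25 and -4.46 when single arrays were dropped. The 11 other member probes ranged from -0.36 to 0.48. Over all probes, 3 passed, none of which matched a named gene. That count was 5 under normexp, 5 when eBayes used trend and robust, 1 when dim probes were kept, and 0 under the slope over slide place. Dropping single arrays gave 1 to 20: dropping isoflurane replicate 1 gave 17, replicate 2 gave 5 and replicate 3 gave 1, while dropping CO2/O2 replicate 3 gave 20 and replicate 1 gave 1. With the replicate number as a block the count was 0. Same-numbered rats had correlations of 0.113, 0.0206 and 0.0602 in their deviations from group means, and differently numbered rats -0.0931 to 0.0389. Whether the numbers pair the rats cannot be told from these values. When slide row was blocked, Ces1d was at -0.10 and -0.07 and Ces1f at -0.14 and -0.12. With the slope over place, Ces1d was at -0.36 and -0.32, Ces1f at -0.23 and -0.23, Ces2c at 0.48, and 2 Ces1e probes at 0.15 and 0.12. The cause of these shifts was not tested. Of the 5 genes most like Ces2e, 4 stayed with quantile normalization and 1 with Spearman's rho. Dim signals limit the size of the Ces2e difference, since 1 of its 3 isoflurane spots was not well above background.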
